A study of Arabidopsis thaliana with 24 samples.

Results

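The second phase of the response of wild-type Arabidopsis thaliana leaves to detachment was described, from RNA sequencing of the explants at 30 min and 1 h against those at t0 (time 0) and 10 min. Members were chosen by time and genotype label: 4 libraries of the 24 in the series, 2 on each side, with all 37686 loci of the table considered. All 4 libraries came from Col-0 (WT) seedlings grown for 12 d under a cycle of 16 h light and 8 h dark at 22 °C on medium with 1% sucrose. The blades of the first pair of rosette leaves were severed from the petiole and kept on B5 medium that lacked sucrose, in continuous light, and each library was made from total RNA of whole explants. Explants in the t0 libraries were frozen without culture, and the others after 10 min, 30 min or 1 h of it. The other libraries were used only for the spread and for comparison: WT at 2, 4, 8 and 12 h, and 16 libraries of coi1-2 (coi1), a mutant of the jasmonate receptor gene, 2 at each of the same 8 times.

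Jasmonate is a lipid-derived hormone made in wounded leaves. Plastid lipases and 13-lipoxygenases start the pathway, allene oxide synthase and cyclase form the cyclic precursor, and reduction and beta-oxidation in the peroxisome complete it. Its conjugate with isoleucine binds the receptor COI1 together with a JAZ repressor, the JAZ protein is degraded, and MYC transcription factors are released. The MYC factors activate their own repressors, the pathway's enzymes and the enzymes that break the hormone down, so that feedback of both signs is built into the response.

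Values are TPM, transcript abundance scaled to the same total in every library, so the read depth is unknown and counting error cannot be computed. A change is the difference between the mean of 30 min and 1 h and the mean of t0 and 10 min in log2(TPM + 1), which understates changes of genes with low values. The 4 WT libraries held 17480 to 17791 genes at 1 TPM or more, and their 10 most abundant genes took 9.4% to 12.0% of all TPM. Since 1 library of each WT time matched a label, the spread comes from pairs of neighbouring times within a window and includes any change between them. The root mean square log2 difference was 0.721 between t0 and 10 min and 0.687 between 30 min and 1 h. Between t0 or 10 min and the libraries of 30 min or 1 h it was 0.948 to 1.17, except 0.659 between 10 min and 30 min. The pairs of 2 h and 4 h (0.878) and of 8 h and 12 h (0.495) also enter the spread. Whether each library came from separate plants is not stated, so the spread behind a p-value may not hold all the variation between plants. Of the markers of other tissues, the 4 shoot meristem genes summed to 0.2 TPM or less and the 4 root genes to 0.3 to 2.1 TPM, with 2 genes of each list at 0 in all 4 libraries. The 5 epidermis markers summed to 813 to 878 TPM and the 19 photosynthesis genes to 83286 to 127053 TPM. Fewer cells of a type and less RNA per cell cannot be told apart in such whole-leaf samples.

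Among the genes that passed the test the step was mostly upward. Over all genes tested, both later libraries lay below both earlier ones by any amount in 33.5%, and above them in 18.4%. Of 18906 genes tested, 243 rose (1.29%) and 45 fell (0.238%), by limma with Benjamini-Hochberg adjustment at 0.05. The risen genes had a median log2 change of 2.75 and a range of 1.13 to 6.69, and the fallen genes a median of -2.18, against a median of -0.10 over all genes tested. Rescaling the libraries moved that last median to -0.02, and left 242 genes higher and 39 lower. The calls rested on the outermost libraries. Without the t0 library or without the 1 h library no gene was called, although 1819 and 1564 genes had an unadjusted p under 0.05, against 3080 with all libraries. Without the 10 min library 411 genes were higher and 73 lower, and without the 30 min library 525 and 209, of which 169 and 208 were among the 288 called with all libraries. A fit of the 4 compared libraries alone called none, with 2766 at an unadjusted p under 0.05. Counting without a test, 702 genes (3.71%) had both later libraries at least 2-fold above both earlier ones on the TPM + 1 scale, and 236 genes (1.25%) had both at least 2-fold below. Among the 243 risen genes 242 were of the first kind, and among the 45 fallen genes 44 were of the second kind. The calls, made on the same libraries, favour both shares.

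**Figure D1:**
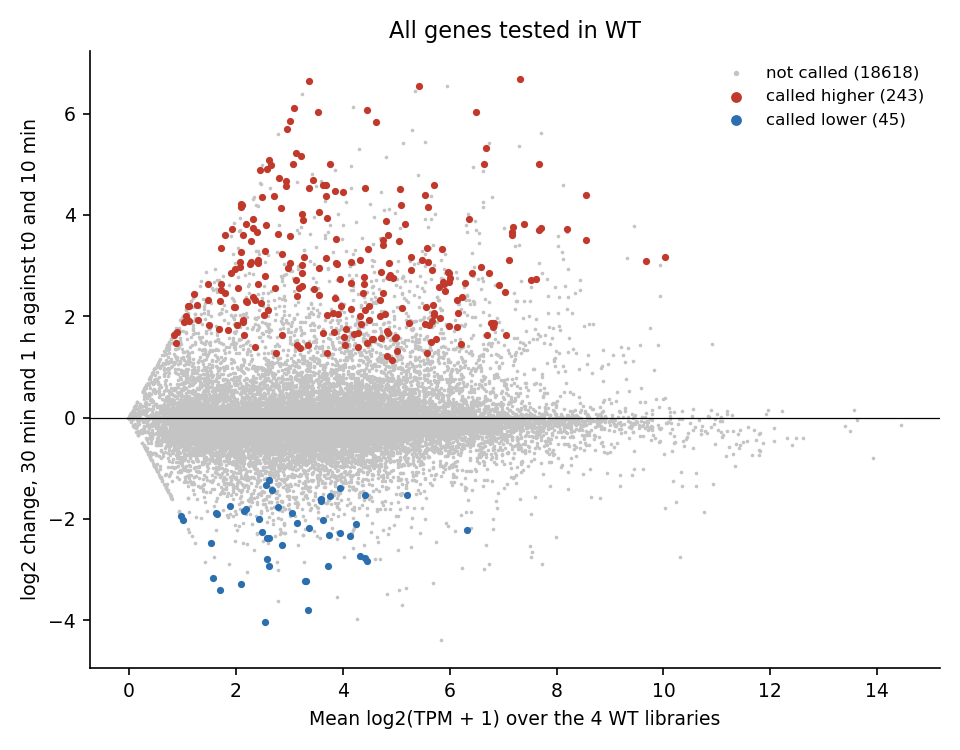
Each point is 1 of 18906 genes: the horizontal axis gives its mean log2(TPM + 1) over the 4 WT libraries and the vertical axis its log2 change, 30 min and 1 h against t0 and 10 min. The 243 genes called higher reach 6.69, and the 45 called lower are fewer and reach -4.04.

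Jasmonate biosynthesis genes were abundant at 30 min and 1 h. Of 20 listed genes 19 were tested, 7 rose and none fell, and their median log2 change was 3.18. In 15 of the 19 both later libraries lay above both earlier ones by any amount, as they did in 18.4% of all genes tested. The summed abundance of the list was 1530 TPM at t0, 1718 TPM at 10 min, 11283 TPM at 30 min and 23430 TPM at 1 h. AOC1 (AT3G25760), an allene oxide cyclase, measured 14.7 TPM in both early libraries, 967 TPM at 30 min and 2721 TPM at 1 h. Its log2 change of 6.69 ± 0.54 (SE; adjusted p = 0.0114) was the largest of the 288 called genes. Its neighbour AOC2 (AT3G25770) started high, at 410 and 289 TPM, and reached 2094 and 4661 TPM (3.18 ± 0.48, adjusted p = 0.0381). The AOC genes are close copies, and how RSEM divided shared reads among them cannot be checked in these files.

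Genes for other steps of the pathway rose as well. OPR3 (AT2G06050), the reductase that follows it, went from 43.3 and 149 TPM to 1430.3 and 2033 TPM (4.39 ± 0.63, adjusted p = 0.0348). ACX1 (AT4G16760), an acyl-CoA oxidase of the beta-oxidation that follows, went from 24.5 and 19.4 to 87.8 and 208 TPM, near the threshold (2.58 ± 0.43, adjusted p = 0.0494). JAR1 (AT2G46370), which joins jasmonate to isoleucine, was steady early at 42.3 and 45.6 TPM and reached 446 and 895 TPM (3.82 ± 0.34, adjusted p = 0.0125). DAD1 (AT2G44810), a phospholipase A1 of the first step, was close to 0 before (0 and 0.03 TPM) and at 7.07 and 39.9 TPM after (4.16 ± 0.68, adjusted p = 0.047). The seventh risen member, AT1G70480, annotated as a DUF220 protein, rose by log2 1.84 ± 0.27. In all 7 risen members both later libraries lay above both earlier ones, which the call itself favours.

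Several enzymes with large changes did not pass the test, and most of these already differed between t0 and 10 min. The 13-lipoxygenase gene LOX3 (AT1G17420) measured 8.48, 92.5, 1116 and 1932 TPM in time order (5.62 ± 0.96, adjusted p = 0.0511). AOS (AT5G42650), the allene oxide synthase gene, measured 131, 263, 1654 and 4036 TPM (3.79 ± 0.67, adjusted p = 0.055). AOC3 (AT3G25780) measured 0.46, 27.1, 332 and 1070 TPM (6.54 ± 1.29, adjusted p = 0.0684). LOX4 and the ligase gene OPCL1 had log2 changes of 5.43 and 3.58, and LOX2 one of 2.40 with 3945 TPM at 1 h. In all of these genes both later libraries lay above both earlier ones, as they did in 18.4% of all genes tested. The copies LOX6, AOC4 and ACX5 had changes of 0.40, 0.26 and -0.19 and were not called.

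The JAZ genes, which encode the repressors that the hormone removes, had the largest share of risen members among the tested genes of the 45 gene lists. Of 13 listed 12 were tested, 7 rose and none fell, the median log2 change was 4.22, and in 11 of 12 both later libraries lay above both earlier ones, by the same count that gave 18.4% of all genes tested. JAZ10 (AT5G13220) measured 1.70 and 2.97 TPM early and 110.3 and 311 TPM late (5.83 ± 0.52, adjusted p = 0.0125). JAZ9 (AT1G70700) measured 31.8 and 39.0 TPM, then 905 and 1482 TPM (5.0 ± 0.34, adjusted p = 0.0114), and was the most abundant family member at 1 h. AT3G22275, annotated as a jasmonate ZIM-domain protein, went from 0 and 1.21 to 42.4 and 50.9 TPM (5.0 ± 0.46, adjusted p = 0.0126). In these 3 genes the early and late values lay far apart, which the call itself favours.

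Within the family the genes differed in when they were highest. JAZ2 (28.1, 57.1, 573 and 435 TPM), JAZ3 (13.3, 15.3, 134 and 128 TPM) and JAZ8 (0.07, 3.28, 69.3 and 42.7 TPM) rose by log2 3.6, 3.11 and 4.70 and were higher at 30 min than at 1 h. JAZ6 rose by 3.75, from 36.8 and 84.4 to 715 and 821 TPM. In all, 6 of 12 JAZ genes were higher at 1 h than at 30 min, as were 14 of 19 biosynthesis genes and 9 of 9 turnover genes, against 49.5% of all genes tested. JAZ1 and JAZ5 had changes of 3.67 and 5.44 and were not called; JAZ1 was already at 393 TPM at 10 min, from 16.3 TPM at t0. JAZ7, at 0.13, 7.72, 200.2 and 74.7 TPM, just missed the threshold (adjusted p = 0.0538). JAZ11 stayed between 9.05 and 12.0 TPM, and JAZ12 was not called (1.29).

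The genes that inactivate the hormone had the highest median change of the 45 lists, 6.07, with 5 of 9 tested genes risen and none fallen. CYP94B1 (AT5G63450), a cytochrome P450 that hydroxylates the isoleucine conjugate, went from 0.02 and 0.04 TPM to 54.5 and 189 TPM (6.64 ± 0.54, adjusted p = 0.0114). CYP94C1 (AT2G27690), which oxidises the conjugate further, went from 0.47 and 3.80 to 142 and 221 TPM (6.07 ± 0.65, adjusted p = 0.018). AT5G05600, a 2-oxoglutarate- and iron-dependent oxygenase, went from 2.06 and 5.56 to 292 and 591 TPM (6.54 ± 0.53, adjusted p = 0.0114). IAR3 and ILL6, amidohydrolases that cleave amino acid conjugates, rose by 5.01 and 4.52. CYP94B3 was not called (6.14 ± 1.08, adjusted p = 0.0538). AT2G38240, JRG21 and the sulfotransferase gene ST2A measured 18.8, 3.99 and 0.28 TPM at 30 min and 370.5, 33.1 and 11.7 TPM at 1 h. Within the 4 compared libraries these genes were mainly high at 1 h, and they were not called. ST2A was higher still at 4 h, at 42.6 TPM, when AT2G38240 was at 126 TPM and JRG21 at 9.33 TPM. At 2 h ST2A, AT2G38240 and JRG21 measured 0.65, 0.58 and 5.48 TPM. The pair of 2 h and 4 h also enters the spread of the test, as does that of 30 min and 1 h.

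**Figure D2:**
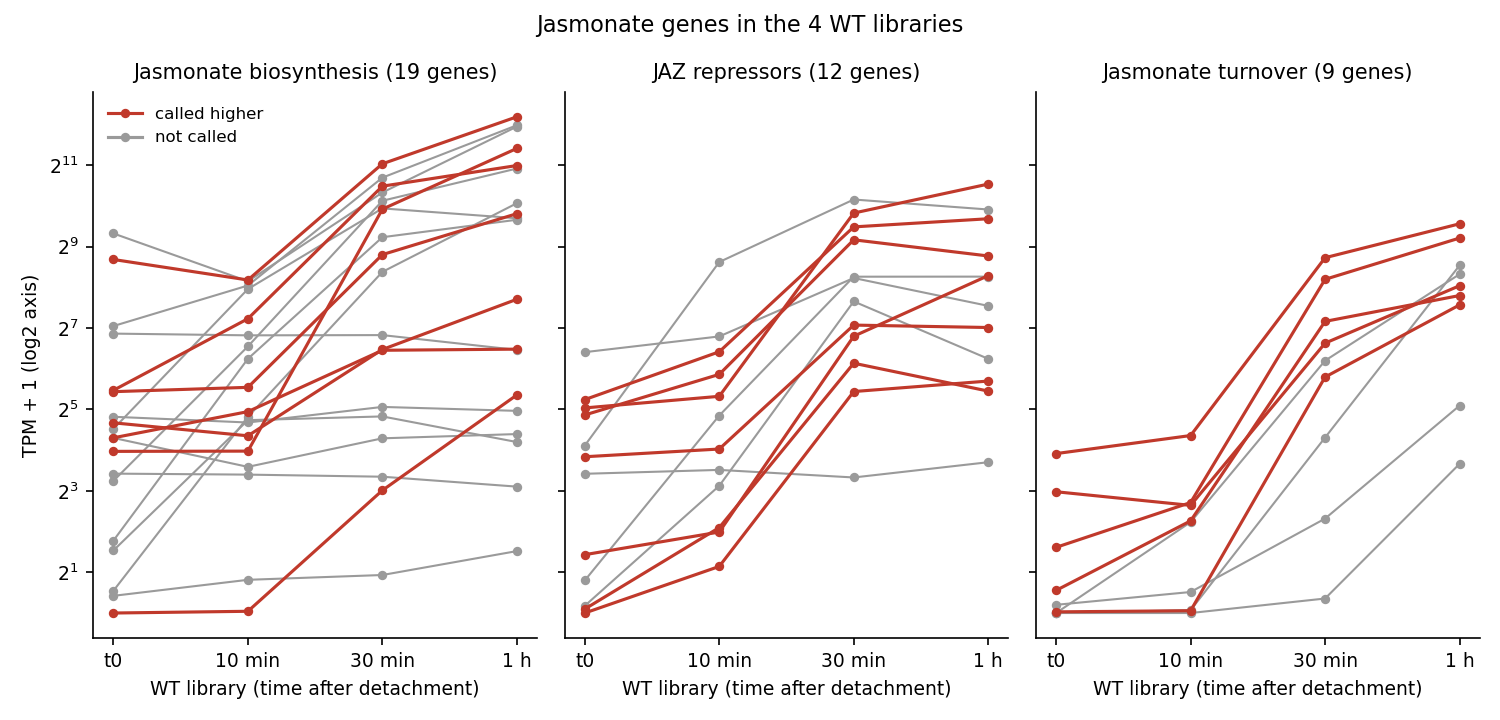
TPM + 1 on a log2 axis in the 4 WT libraries (horizontal axis, time after detachment), 1 line per tested gene, red where called higher and grey where not. In 7 of 19 biosynthesis, 7 of 12 JAZ and 5 of 9 turnover genes the rise to 30 min and 1 h passed the test, while several grey lines had already climbed at 10 min.

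The median of 13 genes for jasmonate transcription factors and the receptor complex stood -0.15 log2 units from t0 at 10 min, 0.19 at 30 min and 0.79 at 1 h, and 5 of the 13 were at least 2-fold above t0 at 10 min. Of the 13 genes 1 rose, JAM2 (AT1G01260), a bHLH repressor of jasmonate responses, by 1.60 ± 0.24 from 8.70 and 7.94 TPM to 32.0 and 23.2 TPM. MYC2 (AT1G32640), the central activator, was at 2.33 TPM at t0, 232 TPM at 10 min, 310.2 TPM at 30 min and 220.4 TPM at 1 h, and its change of 3.24 ± 1.72 was not called. ORA47, an AP2/ERF activator of the biosynthesis genes named here after its values were seen, peaked at 10 min (2.44, 464, 76.6 and 5.21 TPM). The receptor gene COI1 measured 15.4, 13.8, 10.7 and 8.65 TPM and was not called (-0.55).

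Rapid ERF and CBF factors are early genes of wound, cold and touch responses. Of 18 tested none was called, with a median log2 change of 0.59. At 10 min their median already stood 4.23 log2 units above t0, with 15 of 18 at least 2-fold up, and it stood at 3.36 at 30 min and 1.33 at 1 h. ERF109 measured 0.03, 199, 437 and 43.2 TPM, and ERF13 measured 2.59, 111, 299 and 351 TPM. Over all genes tested, 859 (4.54%) were at least 2-fold above t0 at 10 min. Of these 859, 338 were highest at 10 min among the 4 libraries, 216 at 30 min and 305 at 1 h, and 32 were among the 243 risen genes. Thus 32 of the 243 (13.2%) had moved by 2-fold at 10 min. A move between t0 and 10 min enters the spread of the test, so the call itself disfavours such genes, rapid ERF and CBF factors included. Counting without a test, 162 of the 859 (18.9%) had both later libraries at least 2-fold above both earlier ones. Of all genes tested 3.71% did. The JAZ, biosynthesis and turnover medians at 10 min were 1.07, 0.11 and 0.31 above t0.

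**Figure D3:**
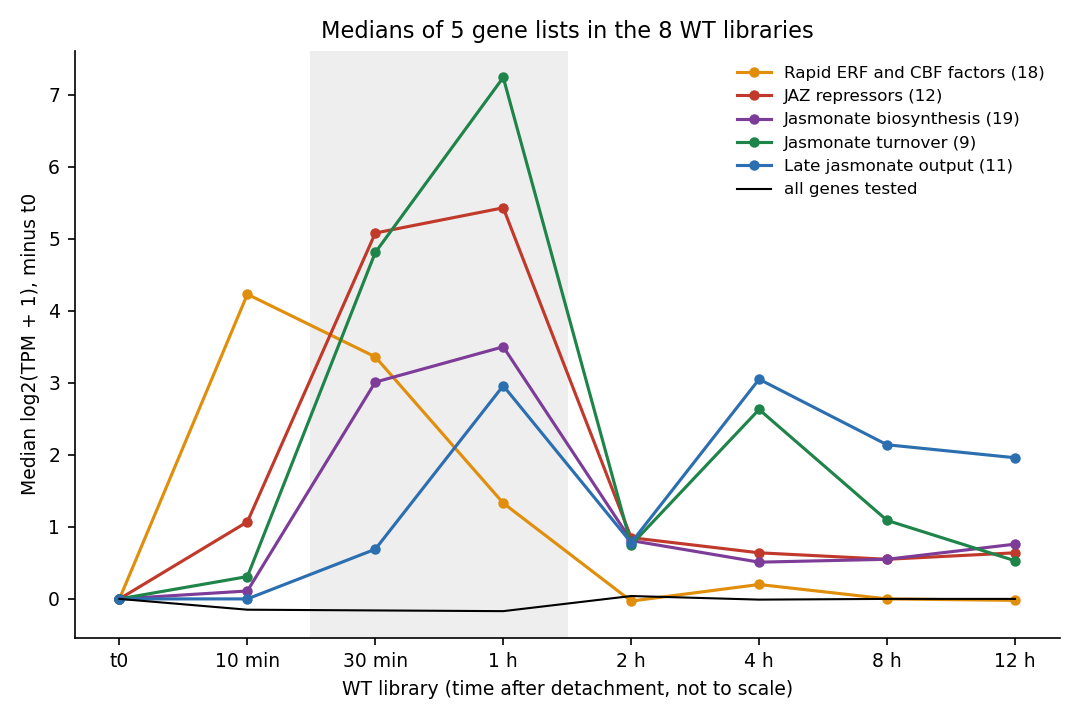
Median log2(TPM + 1) minus the t0 value for 5 gene lists and for all genes tested, in the 8 WT libraries (numbers of genes in brackets; shading marks 30 min and 1 h; times not to scale). The rapid ERF and CBF median was highest at 10 min (4.23), and the JAZ, biosynthesis and turnover medians at 1 h (5.43, 3.5 and 7.24).

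Enzyme genes outside the biosynthesis and turnover lists rose too. TPS04 (AT1G61120), the geranyllinalool synthase gene, went from 0.01 and 0.04 TPM to 21.1 and 226 TPM (6.11 ± 1.02, adjusted p = 0.0481). CYP82G1 (AT3G25180), which acts on the product of TPS04, went from 0 and 1.09 to 44.4 and 195 TPM (6.03 ± 0.99, adjusted p = 0.047). FAMT (AT3G44860), annotated as a farnesoic acid carboxyl-O-methyltransferase, went from 6.19 and 16.2 to 465 and 1125 TPM (6.03 ± 0.58, adjusted p = 0.0144). UGT76E12, a glucosyltransferase gene, rose by 5.09. All 4 genes were higher at 1 h than at 30 min.

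Of 11 late jasmonate outputs TPS04 and the chlorophyllase gene CLH1 rose (CLH1 by 3.72 ± 0.61, to 1636 TPM at 1 h). TAT3, a tyrosine aminotransferase gene, and VSP1, a vegetative storage protein gene, had changes of 6.44 and 3.42 and were not called. TAT3 measured 3.29, 3.45, 143 and 996 TPM, and VSP1 6.56, 6.01, 32.9 and 177 TPM. The median of the list was 0.69 log2 units above t0 at 30 min and 2.96 above it at 1 h. Of 10 tested genes of indole glucosinolate synthesis, the defence compounds of crucifers, 1 rose: MYB34 (AT5G60890), a regulator of the pathway (19.3, 29.4, 134 and 207 TPM; 2.75 ± 0.30, adjusted p = 0.0195). SOT16 and CYP83B1, enzymes of the pathway, had changes of 3.26 and 2.46, with adjusted p of 0.0535 and 0.0588.

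Other stress regulators rose beside them. WRKY18 (AT4G31800), a factor of pathogen responses, went from 5.53 and 39.0 to 612 and 688 TPM (5.33 ± 0.75, adjusted p = 0.0334). WRKY48 and WRKY28 rose too (4.59 and 2.63), so that 3 of 16 WRKY genes tested rose. WRKY40, at 4.19, 445, 558 and 464 TPM, was near its later level by 10 min and was not called. Of 10 stress NAC and MYB factors the 3 related NAC genes ANAC019, ANAC055 and ANAC072 rose, by 4.46, 2.32 and 3.61. AT3G53600, a C2H2 zinc finger gene, was at 0 and 0.20 TPM and then at 31.6 and 32.1 TPM (4.91 ± 0.26, adjusted p = 0.0101), the lone riser of 10 genes in its list.

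Few genes of the signalling lists rose, although even 1 gene in lists this short exceeds the 1.29% of all genes tested. PEPR2 (AT1G17750), a receptor for the damage peptides released from wounded cells, went from 0.62 and 2.36 to 15.4 and 47.4 TPM (3.59 ± 0.57), and was the 1 gene called of 20 for pattern and damage signalling. Its close relative PEPR1 measured 9.12, 37.0, 136 and 122 TPM and was not called (2.73, adjusted p = 0.0792). CML39, a calmodulin-like gene, rose from 0 and 0.11 to 23.3 and 154 TPM, 1 of 13 in its list. Outside the 45 lists, the kinase gene MAPKKK21 went from 0.06 and 0.92 to 57.7 and 47.1 TPM (5.22 ± 0.40, adjusted p = 0.0114), and ABR1, an ERF repressor of abscisic acid responses, rose by 5.70.

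Other hormone lists contributed few genes. Of all genes tested 1.29% rose, a share that 1 risen gene exceeds in lists this short. ACS2, an ethylene biosynthesis gene, rose by 2.21, 1 of 12 tested in its list. GA2OX6, which inactivates gibberellin, and RGL3, a DELLA repressor of gibberellin responses, rose by 5.01 and 3.63, 2 of 9 tested. The auxin-responsive genes IAA5 and IAA2 rose by 2.28 and 1.87, 2 of 15 tested. Lists for abscisic acid (17 tested), salicylic acid (11), auxin biosynthesis (15), brassinosteroid (12) and SAUR growth genes (7) held no called gene.

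None of the 45 fallen genes belonged to the 45 lists. Among called protein-coding genes of at least 10 TPM the largest decline was that of AT1G23390, a Kelch-repeat F-box gene, from 43.5 and 31.6 TPM to 2.24 and 1.29 TPM (-3.81 ± 0.31, adjusted p = 0.0114). CIB1, a bHLH partner of the blue-light receptor cryptochrome, went from 14.3 and 10.6 to 0.88 and 0 TPM (-3.28 ± 0.39, adjusted p = 0.0217). ACHT5, a chloroplast thioredoxin gene, and RHA1B, a RING finger gene, fell by 3.23 and 2.94 on the log2 scale. LBD37 and LBD39, repressors of nitrogen-response genes, fell from 55.0 and 46.8 to 7.81 and 5.91 TPM and from 28.2 and 44.2 to 5.80 and 2.31 TPM. BEE2, a bHLH gene induced by brassinosteroid, and ESE3, an ERF gene, fell by 2.83 and 2.51. In each of these 8 genes both later libraries lay below both earlier ones, which the call itself favours. They did so by any amount in 33.5% of all genes tested.

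The remaining 4 of the 12 named were AT5G22920, AT3G63210, AT3G22970 and AT2G36950, with changes of -3.22, -2.80, -2.77 and -2.37. Large declines that missed the threshold included BT2, of sugar and nitrogen signalling (192, 354, 27.7 and 4.42 TPM; -4.39, adjusted p = 0.0511), and the cell wall gene EXPA8 (62.5, 90.2, 17.9 and 0.25 TPM; -3.97). SAUR16 had dropped by 10 min (51.2, 5.44, 0.92 and 2.30 TPM) and was not called. The photosynthesis list had a median change of -0.79 and no called gene, and LHCB1.1, a light-harvesting gene, swung from 146 to 1308, 338 and 16.0 TPM. Its 19 genes summed to a lower TPM at 30 min and 1 h, 105578 and 83286, than at t0 and 10 min, 116618 and 127053. The part of this in the changes of other genes was not tested.

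In all, 37 of 464 tested list memberships rose, spread over 14 of 45 lists, and 31 lists held no called gene. Medians of the reference genes, guard cell markers, epidermis markers and ribosomal proteins lay between -0.05 and 0.06. The xyloglucan endotransglucosylase gene XTH18, of cell wall remodelling, measured 0.25, 23.1, 117 and 673 TPM and was not called (5.68, adjusted p = 0.131).

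**Figure D4:**
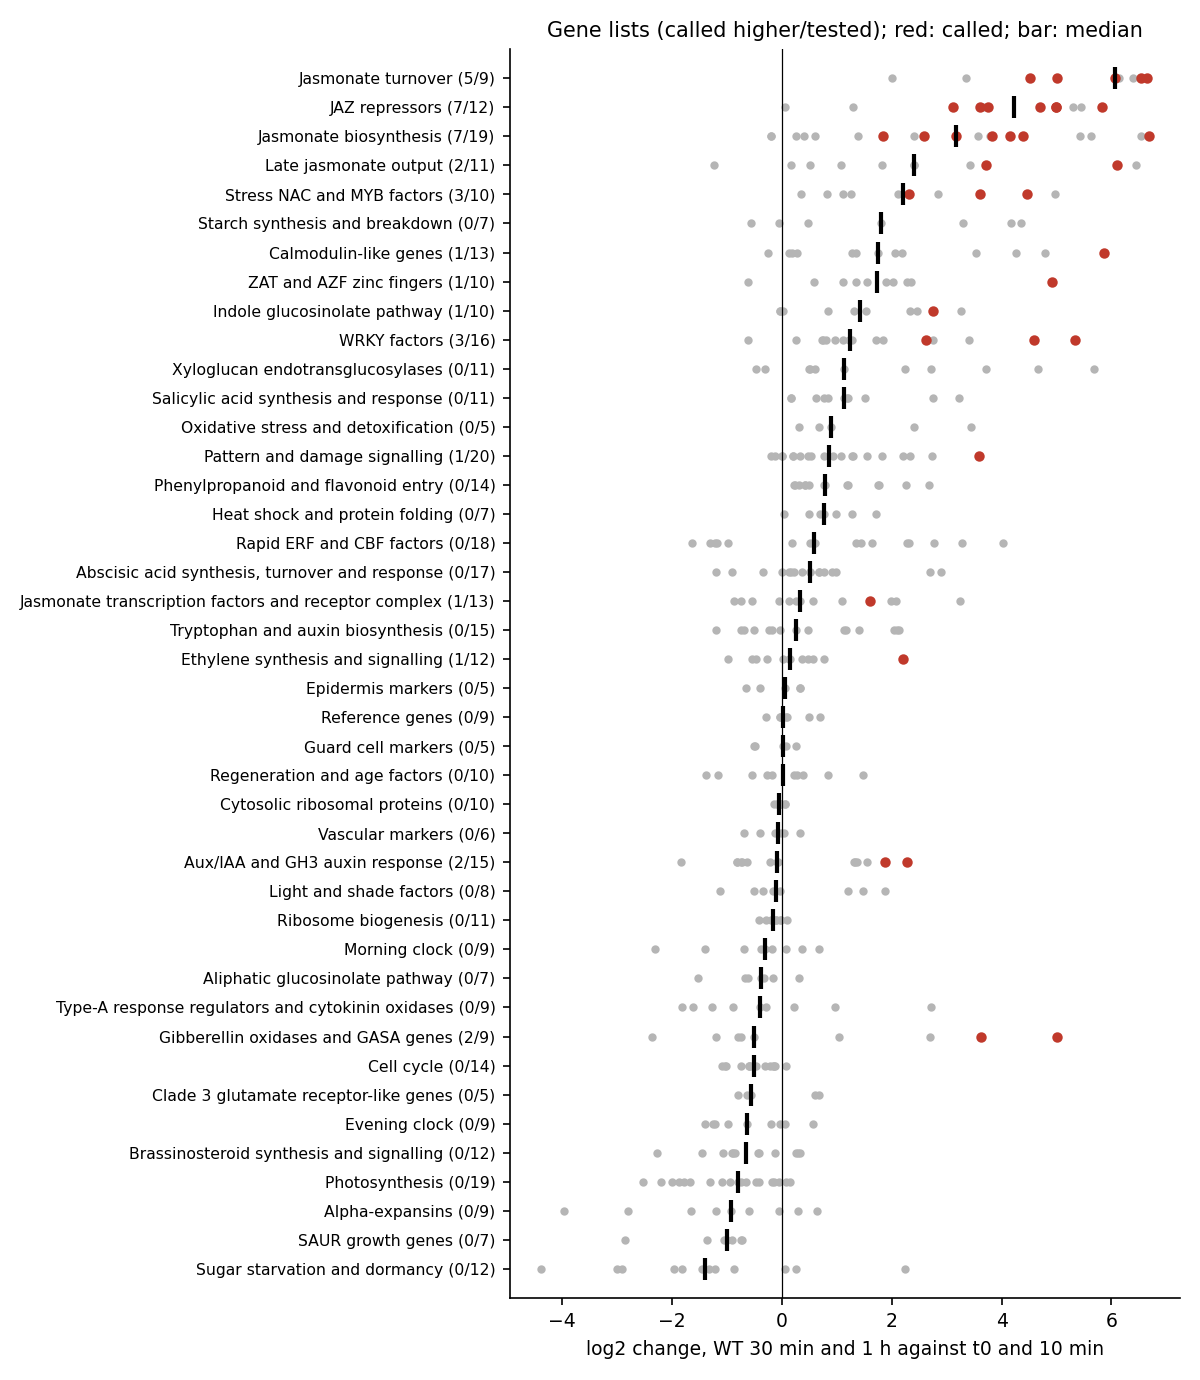
The log2 change of every tested member of the 42 lists with at least 5 tested genes, 1 row per list, with called genes in red and the list median as a bar; the row label gives genes called higher over genes tested. The turnover, JAZ and biosynthesis lists have the highest medians (6.07, 4.22 and 3.18), and no list shown has a gene called lower.

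In 239 of the 243 (98.4%) the highest of the 8 WT values was at 30 min or 1 h, against 19.9% of all genes tested, a share that the contrast itself favours. At 2 h 186 of 243 (76.5%) lay within 2-fold of their mean over t0 and 10 min, against 82.8% of all genes tested, and 46 (18.9%) were still at least 2-fold above it, against 10.4% of all genes. At 12 h the latter number was 45. JAZ10 measured 3.17 TPM and CYP94B1 0.71 TPM at 2 h, while AOC1, at 190 TPM, was still above its 14.7 TPM at t0. Of the 45 fallen genes 20 (44.4%) were still at least 2-fold below at 2 h, against 6.82% of all genes. The order of the later times has its own limit: the dawn clock gene LHY, named after its values were seen, measured 36.7 TPM at 2 h, 0.80 TPM at 4 h and 35.1 TPM at 12 h. Time after detachment cannot be told apart from time of day, sugar-free medium or continuous light.

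The coi1 libraries were used to ask which changes differed in a mutant of the receptor gene. They were 2 for each time, and the replicates of 30 min and of t0 stood apart from each other, with root mean square log2 differences of 1.05 and 0.697, against 0.318 to 0.502 at the other times. The genotypes were deposited in 2 tables, so only the change within each genotype was compared. LHY ran from 0.26 to 102 TPM in the coi1 libraries of 30 min and 1 h, against 0.29 and 0.79 TPM in WT. The time of day of sampling is not stated for either genotype, so a genotype difference cannot be told apart from one of sampling time. In coi1, 1794 genes were higher (9.08% of 19757) and 3772 lower (19.1%) at 30 min and 1 h than at t0 and 10 min, counts from 8 libraries that became 2600 and 2627 after rescaling. The coi1-2 allele changes the protein, so the COI1 transcript does not check the labels.

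The WT step was smaller in coi1 for 194 genes (0.982%) and larger for 15 (0.0759%), by the genotype by window term of 1 limma fit over 24 libraries. All 194 were higher in WT at 30 min and 1 h by value, and 105 of them were among the 243 risen genes. Because the WT libraries enter both tests, that overlap is not independent of the rise. Among the 243 the median log2 change was 2.75 in WT and 0.77 in coi1, and 120 of them (49.4%) also rose in coi1, against 8.89% of all genes tested. So the risen genes comprised 105 with a called difference and 138 without one. Leaving out coi1 30 min replicate 1 gave 506 smaller and 300 larger, leaving out the WT t0 library 108 and 1, the WT 10 min library 197 and 97, the WT 30 min library 334 and 26, and the WT 1 h library 78 and 14.

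The jasmonate genes fell on both sides of that line. In coi1 the 4 early libraries of JAZ10 ran from 1.29 to 1.86 TPM (median 1.42) and the 4 later ones from 2.56 to 6.90 TPM (median 3.55). Its change differed from that in WT by -4.85 ± 0.53 (adjusted p = 3.25e-05). CYP94B1 stayed at 0.61 TPM or less in all 8 coi1 libraries (-6.30 ± 0.42, adjusted p = 5.56e-08). JAR1 ran from 40.7 to 89.0 TPM early and from 19.6 to 56.1 TPM later (-4.18 ± 0.50, adjusted p = 8.7e-05). JAZ2, JAZ3, JAZ7, JAZ8, JAZ12 and AT3G22275 also had called differences, making 7 of 12 JAZ genes, with 4 of 19 for biosynthesis and 4 of 9 for turnover. In coi1 JAZ7 ran from 0 to 0.06 TPM early and from 0.56 to 1.72 TPM later. JAZ8 ran from 0 to 0.20 TPM early and from 0.52 to 1.75 TPM later. For JAZ7, JAZ8 and JAZ10 all later coi1 values lay above all early ones, at low values where log2(TPM + 1) understates a change. By limma the coi1 change was called for JAZ8 (0.86, adjusted p = 0.0304) and JAZ10 (0.98, adjusted p = 0.0253). That of JAZ7 was not called (1.09, adjusted p = 0.0517).

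JAZ6 and JAZ9 were the risen JAZ genes whose difference was not called. In coi1 JAZ6 went from 6.49 to 8.80 TPM early to 38.5 to 153 TPM later, with no overlap, and rose by log2 3.31, a difference of -0.45 ± 0.75. JAZ9 went from 1.85 to 2.37 TPM early to 4.52 to 126 TPM later (-1.32 ± 1.25). CYP94C1 and OPR3 rose in coi1 by 3.71 and 2.41, and their differences of -2.36 ± 0.90 and -1.98 ± 0.94 were not called. WRKY18 rose in both genotypes (-2.06 ± 1.28, not called).

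Fallen genes mostly fell in coi1 too, 32 of 45 (71.1%), against 19.6% of all genes tested. A called difference was found for 2 of the 45, AT1G18000, a transporter gene of the major facilitator superfamily (1.91 ± 0.44, adjusted p = 0.036), and AT3G03105 (3.29 ± 0.70, adjusted p = 0.0209), named after its values were seen. AT3G03105 is annotated as an antisense transcript of AT3G15353, and whether reads were assigned by strand is not given in the sources used here. Among clock genes the morning list had a median change of 2.23 in coi1 and -0.31 in WT, and the evening list -2.26 and -0.64, with no called difference in either. Photosynthesis medians were 0.34 in coi1 and -0.79 in WT. The part of these in the genotype differences was not tested.

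**Figure D5:**
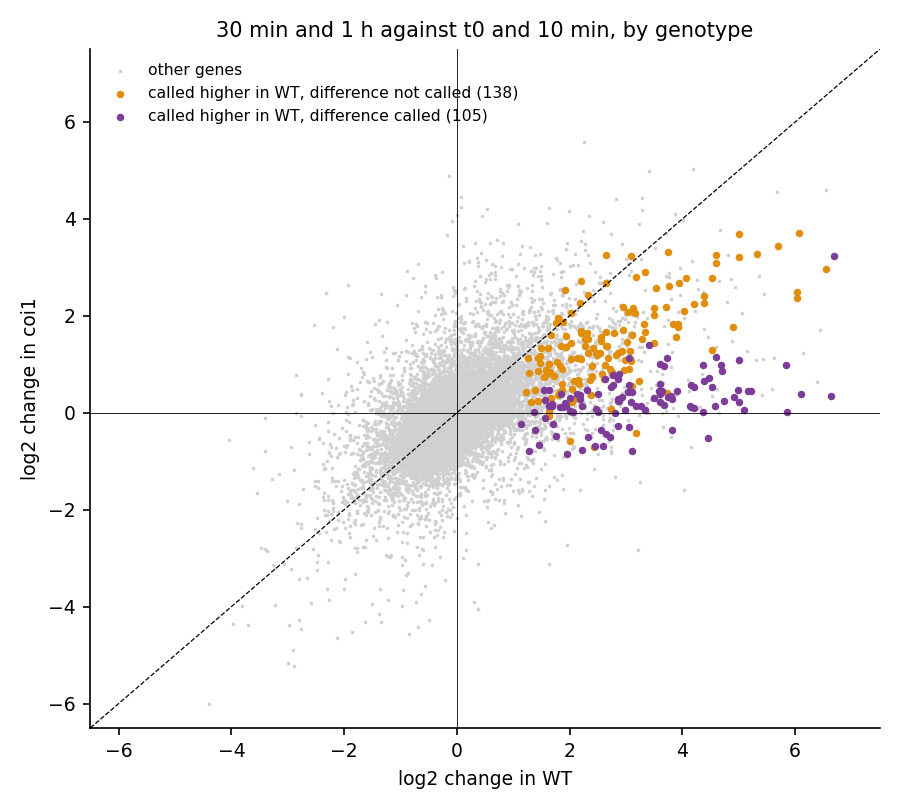
The log2 change in coi1 (vertical axis) against that in WT (horizontal axis), 1 point per gene, with the line of equal change dashed. Of the 243 genes that rose in WT, the 105 with a called difference have a median of 0.26 in coi1 and lie between -0.85 and 1.40 there, except AOC1 at 3.24, and the other 138 have a median of 1.35.

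Promoters of the risen genes held 2 of 4 motifs more often than promoters in general, by counts with no test. Windows of 250 bases before each RefSeq gene start were read from TAIR10.1 and searched on both strands for 4 motifs, each counted on its own so that a window can hold several. CACGTG, the G-box bound by MYC factors, was in 35 of 205 full windows of risen genes (17.1%), 3 of 35 of fallen genes (8.57%) and 964 of 12710 of all protein-coding genes tested (7.58%). Windows shortened by a neighbouring transcript were left out. The share was 20.9% where the coi1 difference was called and 14.0% where it was not. CGCGT or its complement ACGCG, a core of calcium-dependent rapid stress promoters, was in 15.6% of risen genes and 7.47% of all. It was in 5.49% of the risen genes with a called difference and 23.7% of those without. TTGACC or GGTCAA, the core of WRKY sites, was in 13.2% and 12.0%, and GCCGCC or GGCGGC, an ERF site, in 1.46% and 1.19%, of risen and of all genes.

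The G-box promoters among the called JAZ and biosynthesis genes are shown, as they carry the motif beside a measured rise, together with that of CYP94B1, the highest riser outside these lists, which has no CACGTG in the window. All are RefSeq TAIR10.1, 5′ to 3′ on the gene's strand and ending at the base before the gene start, and capitals mark CACGTG. JAZ8 lies at chr1:10596102-10596351 on the plus strand, AT3G22275 at chr3:7879811-7880060 on the minus strand, JAZ2 at chr1:28150447-28150696 on the minus strand, JAZ3 at chr3:6119457-6119706 on the plus strand, ACX1 at chr4:9428896-9429145 on the minus strand and CYP94B1 at chr5:25410726-25410975 on the minus strand.
JAZ8: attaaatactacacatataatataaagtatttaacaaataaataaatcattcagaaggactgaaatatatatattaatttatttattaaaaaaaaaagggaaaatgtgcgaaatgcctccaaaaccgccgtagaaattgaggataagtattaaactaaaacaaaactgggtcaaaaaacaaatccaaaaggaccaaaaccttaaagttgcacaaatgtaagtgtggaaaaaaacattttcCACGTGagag
AT3G22275: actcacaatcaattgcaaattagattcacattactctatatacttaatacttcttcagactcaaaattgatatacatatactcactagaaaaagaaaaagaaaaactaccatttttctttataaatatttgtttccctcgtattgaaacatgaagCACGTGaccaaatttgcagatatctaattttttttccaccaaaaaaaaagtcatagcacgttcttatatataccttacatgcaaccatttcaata
JAZ2: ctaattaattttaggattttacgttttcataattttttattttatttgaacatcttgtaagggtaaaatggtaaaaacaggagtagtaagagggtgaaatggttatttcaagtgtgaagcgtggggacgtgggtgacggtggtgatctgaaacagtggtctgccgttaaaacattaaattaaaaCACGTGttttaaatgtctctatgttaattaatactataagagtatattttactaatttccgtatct
JAZ3: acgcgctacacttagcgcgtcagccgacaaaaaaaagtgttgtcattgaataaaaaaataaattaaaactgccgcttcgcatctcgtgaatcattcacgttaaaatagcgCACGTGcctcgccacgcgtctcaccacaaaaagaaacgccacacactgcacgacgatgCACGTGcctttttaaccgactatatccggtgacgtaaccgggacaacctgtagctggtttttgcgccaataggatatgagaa
ACX1: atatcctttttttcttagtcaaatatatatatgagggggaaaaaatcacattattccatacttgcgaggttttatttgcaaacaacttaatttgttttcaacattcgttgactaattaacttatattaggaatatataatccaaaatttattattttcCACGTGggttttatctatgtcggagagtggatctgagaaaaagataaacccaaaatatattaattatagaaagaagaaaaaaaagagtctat
CYP94B1: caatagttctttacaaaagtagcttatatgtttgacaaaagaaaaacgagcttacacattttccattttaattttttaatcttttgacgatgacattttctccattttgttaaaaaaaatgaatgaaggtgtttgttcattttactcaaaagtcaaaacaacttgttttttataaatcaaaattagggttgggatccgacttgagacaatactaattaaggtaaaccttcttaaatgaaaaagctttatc
JAZ3 holds 2 copies, starting 140 and 82 bases before the gene start. The others begin 10 (JAZ8), 95 (AT3G22275), 66 (JAZ2) and 92 bases (ACX1) before it. Among the 19 risen members of the 3 jasmonate lists 18 had a full window, of which 5 held a CACGTG. AOC1 and JAZ10, among the highest risers, had none in these 250 bases, which says nothing of sequence farther away.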

How the data were processed

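TPM per gene, estimated by RSEM after alignment, is what the authors deposited, in 1 table for WT and 1 for coi1. Per the submitters' processing notes the build was TAIR10 and the tools were RSEM 1.3.2, STAR 2.7.2b and Trim Galore 0.5.0; other settings are not given in the sources used here. Of the columns, 24 matched a label, and 8 columns of the WT table, named as replicate 2 of each time, matched none and were not used; if they are replicates of these samples, the WT comparison rests on only part of the WT libraries. Gene names came from TAIR10.1, which held 37390 of 37686 loci.

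Fits used limma 3.58.1 in R 4.3.3 on log2(TPM + 1), with trended moderation, on genes of at least 1 TPM in at least 2 libraries, and a gene was called at a Benjamini-Hochberg adjusted p below 0.05 over all genes tested. The WT fit held 8 libraries in 4 windows of 2 times (t0 and 10 min, 30 min and 1 h, 2 and 4 h, 8 and 12 h), which leaves 4 residual degrees of freedom. The genotype fit held 24 libraries in 8 groups of genotype and window, with 16. The scripts were tested on simulated data.

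Named were the 12 highest and 12 lowest called protein-coding genes of at least 10 TPM, up to 6 genes a direction by genotype difference, all tested members of the 3 jasmonate lists, and up to 5 members of each other list; some of these are left out. Members and lists were chosen with earlier results of these data known. Alternatives were another pseudocount, other filters, rescaling, moderation without trend, other sets of libraries, and each library left out.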

Additional observations from a re-analysis of the deposited data

Results flagged for a closer look

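The change from t0 and 10 min to 30 min and 1 h differed between the genotypes, by the genotype by window term of the limma fit, for these named genes, given as the coi1 change minus the WT change in log2 units. Among jasmonate genes the values were -6.30 for CYP94B1, -4.85 for JAZ10, -4.77 for AT3G22275, -4.21 for JAZ7, -4.18 for JAR1, -4.05 for DAD1, -3.98 for ILL6, -3.93 for IAR3, -3.84 for JAZ8, -3.45 for AOC1, -3.22 for JRG21, -3.01 for JAZ2, -2.68 for JAZ3, -1.51 for JAZ12 and -1.45 for AT1G70480. Among outputs and regulators they were -5.85 for CML39, -5.72 for TPS04, -5.05 for UGT76E12, -4.99 for ANAC019, -4.78 for MAPKKK21, -4.58 for AT3G53600, -3.23 for ANAC072, -3.18 for RGL3, -3.14 for PEPR2, -2.81 for ANAC055 and -1.95 for WRKY28. Genes chosen after their values were seen gave -2.62 for VTC5, -2.19 for CYT1, -1.81 for MAPKKK17 and -1.49 for MAPKKK19. The named genes with the opposite sign were AT1G18000, at 1.91, and AT3G03105, chosen after its values were seen, at 3.29.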

How the results depend on the processing

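The WT counts, 243 higher and 45 lower, depended most on which libraries set the spread. They were 932 and 743 with all 24 libraries in 8 groups, which shared 271 genes with the 288 called, and 0 and 0 with the 4 compared libraries alone. Leaving out 1 library gave 0 to 525 higher and 0 to 209 lower. Without a filter they were 130 and 25, with a pseudocount of 0.1 they were 173 and 26, and with rescaling, a filter of 5 TPM or no trend they stayed within 1.5 times. No named called gene changed direction under any alternative, but of 64 called ones 35 lost the call without a filter, 19 with the pseudocount of 0.1, 8 after rescaling, 3 with the filter of 5 TPM, 1 without trend, 25 without the 10 min library and 5 without the 30 min library; none kept it without t0, without 1 h or in the 4 libraries alone. A gene not tested in a setting is not counted as having lost its call, so the remainder did not all keep it. This held for the filter of 5 TPM and for the fits without the 30 min or the 1 h library. Directions reversed for named genes that were not called. With 1 library left out ORA47 ranged from -4.41 (without t0) to 2.67 (without 10 min) and was 0.96 without 1 h, ERF109 ranged from -0.53 (without t0) to 7.08 (without 10 min), and JAZ11 from -0.14 (without 1 h) to 0.24 (without 30 min). The causes were not tested.

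The genotype difference, 15 larger and 194 smaller in coi1, gave 26 larger after rescaling. With only the first 2 windows it gave 1 and 65, with coi1 replicate number 1 alone 2 and 30, and with number 2 alone 63 smaller. Leaving out 1 library gave 1 to 300 larger and 78 to 506 smaller; beside the WT libraries and coi1 30 min replicate 1, the larger count moved most without coi1 t0 replicate 1 (29), 10 min replicates 1 and 2 (4 and 6) and 1 h replicates 1 and 2 (7 and 9). The coi1 counts, 1794 and 3772, were 855 and 1656 with the first 2 windows, 3 and 2 with replicate number 1 alone, 705 and 1277 with number 2 alone, and 1071 to 2144 and 2399 to 4973 with 1 library left out, lowest without 1 h replicate 1.

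The WT libraries used have 1 replicate number only, so no paired fit of the WT contrast was possible. For coi1, the deviations of same-numbered libraries had correlations between times of -0.316 to 0.504, with a median of 0.000646. They did not deviate together at all times, and the check does not settle whether the number pairs them. A replicate block gave 13 larger and 188 smaller for the genotype difference and 1773 higher and 3672 lower in coi1, and 1 of 32 named differences lost its call. Of these 32, 22 lost it with coi1 replicate number 1 alone, 19 with number 2 alone, 16 with the first 2 windows, 12 without WT t0, 9 without WT 1 h, 7 with the pseudocount of 0.1, 1 without a filter and 5 or fewer without any other library. The TPM values carry no depth, so what counting error limits is unknown.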

Other observations

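A few small gene families were looked at after values had been seen, so their counts are descriptions. Of 9 mitogen-activated protein kinase kinase kinase genes (MAPKKK13 to MAPKKK21) 7 were tested and 5 rose in WT: MAPKKK15 by log2 4.38, MAPKKK17 by 2.18, MAPKKK18 by 3.06, MAPKKK19 by 1.63 and MAPKKK21 by 5.22. MAPKKK15 measured 0.59, 0.28, 16.6 and 49.3 TPM at t0, 10 min, 30 min and 1 h. None of the 7 fell.

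Of 10 genes of ascorbate synthesis and recycling 3 rose. CYT1, which makes the ascorbate precursor GDP-mannose, measured 81.0, 69.9, 371 and 683 TPM and rose by 2.73. VTC5, a GDP-L-galactose phosphorylase gene, measured 25.5, 36.8, 242 and 214 TPM and rose by 2.85. DHAR1, which regenerates ascorbate, rose by 3.1, to 3655 TPM at 1 h. VTC2, the close relative of VTC5, measured 127, 62.1, 102 and 237 TPM and was not called.

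Of 5 DELLA genes, growth repressors of the gibberellin pathway, RGL1 rose by 1.59 beside RGL3, and the other 3 were not called. Of LBD37, LBD38 and LBD39 the first and last fell, and LBD38 had a change of 0.64 and was not called.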
